A study of Arabidopsis thaliana with 12 samples.

Results

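Transcripts of 4 nuclear genes that serve the chloroplast NDH complex were followed in wild-type (WT) *Arabidopsis thaliana* and in the psad1 mutant. The genes are NdhS (AT4G23890) and NdhN (AT5G58260), which encode subunits of the complex, and CRR21 (AT5G55740) and OTP85 (AT2G02980), which encode RNA editing factors for the transcript of another subunit, NdhD. They were taken as the probes whose platform annotation lists exactly 1 gene, that gene being a member: 4 of the 692 probes with 1 gene, on an array of 3439 probes. Each gene has 1 such probe.

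The array profiled total RNA of ecotype Columbia 0 in 6 samples of WT and 6 of psad1. By the labels the mutant is without PSI-D1, a photosystem I protein, and both genotypes share the ecotype and carry no other change named in the labels. Arabidopsis has a second PSI-D gene, PSAD2, which the labels do not list as altered. The labels give no tissue, plant age or growth condition, nor the way the mutation was made.

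The chloroplast NDH complex sits in the thylakoid membrane, takes electrons from reduced ferredoxin and passes them back to plastoquinone. With photosystem I it thereby forms a route of cyclic electron flow, and in plants it is bound to photosystem I in a supercomplex. Part of its subunits, NdhD among them, are encoded in the plastid genome, and the others, NdhS and NdhN included, come from nuclear genes. The plastid transcripts undergo C-to-U editing, in which pentatricopeptide repeat (PPR) proteins such as CRR21 and OTP85 each recognise particular sites. PSI-D forms the docking site of ferredoxin on the stromal side of photosystem I.

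Within each genotype the samples resembled each other in sets of 2, namely samples 1 and 2, samples 3 and 4, and samples 5 and 6. Over all tested probes, deviations from the genotype mean gave r of 0.469 to 0.649 for partners in a set and r of −0.609 to −0.111 between sets of a genotype. Subtracting the genotype mean in itself pushes r between sets towards negative values. The labels do not say what a set is, nor whether samples came from separate plants. The 3 set averages per genotype were therefore used as replicates, and values on all 12 samples taken as independent are given beside them. Means ± SD below are over 3 set averages of the deposited intensity. Log2 changes are psad1 minus WT on the log2 intensity scale, with standard errors (SE) and adjusted p-values from limma across 3202 tested probes. Median intensity per sample lay between 0.554 and 0.623. No single-gene probe, and no probe with several genes, listed PSAD1 or PSAD2, so the labels could not be checked through the mutated gene.

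NdhS, which forms the ferredoxin-binding site of the NDH complex on its stromal side, was higher in psad1 than in WT. In WT its intensity was 6.38, 6.40, 5.89, 6.13, 6.23 and 6.40 in samples 1 to 6. In psad1 it was 8.41, 7.86, 6.83, 7.40, 8.01 and 8.33. Each of the 6 psad1 values lay above each of the 6 WT values, and the lowest psad1 value, in sample 3, was closest to WT. The mean was 7.81 ± 0.598 (SD, n = 3) in psad1 and 6.24 ± 0.203 in WT. This was a 1.25-fold difference, with a 95% interval of 1.06 to 1.47 that is not adjusted for the number of probes tested. On the log2 scale the difference was 0.32 with an SE of 0.10. In RNA from a whole sample, a gene active in more cells and more RNA of it per cell cannot be told apart.

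With the 12 samples taken as independent, NdhS passed the threshold of 0.05 (limma adjusted p = 0.00327). On set averages it did not (adjusted p = 0.199, unadjusted p = 0.0118), nor with the sets as a random block (adjusted p = 0.0867). NdhS was the one gene of the 4 that passed on 12 samples, where 15.8% of all tested probes passed. On set averages 0 of the 4 genes passed, where 0.874% of tested probes did. An unadjusted p under 0.05 was met by 1 of the 4, NdhS, and by 14.9% of all tested probes. The set averages of NdhS did not overlap between genotypes, with 6.39, 6.01 and 6.32 in WT and 8.13, 7.12 and 8.17 in psad1. Psad1 set averages lay wholly above those of WT for 8.81% of tested probes, and all 6 psad1 samples above all 6 WT samples for 4.18%. An exact permutation test of the set averages (two-sided) gave p = 0.1 for NdhS, the smallest value that 3 sets against 3 allow.

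**Figure D1:**
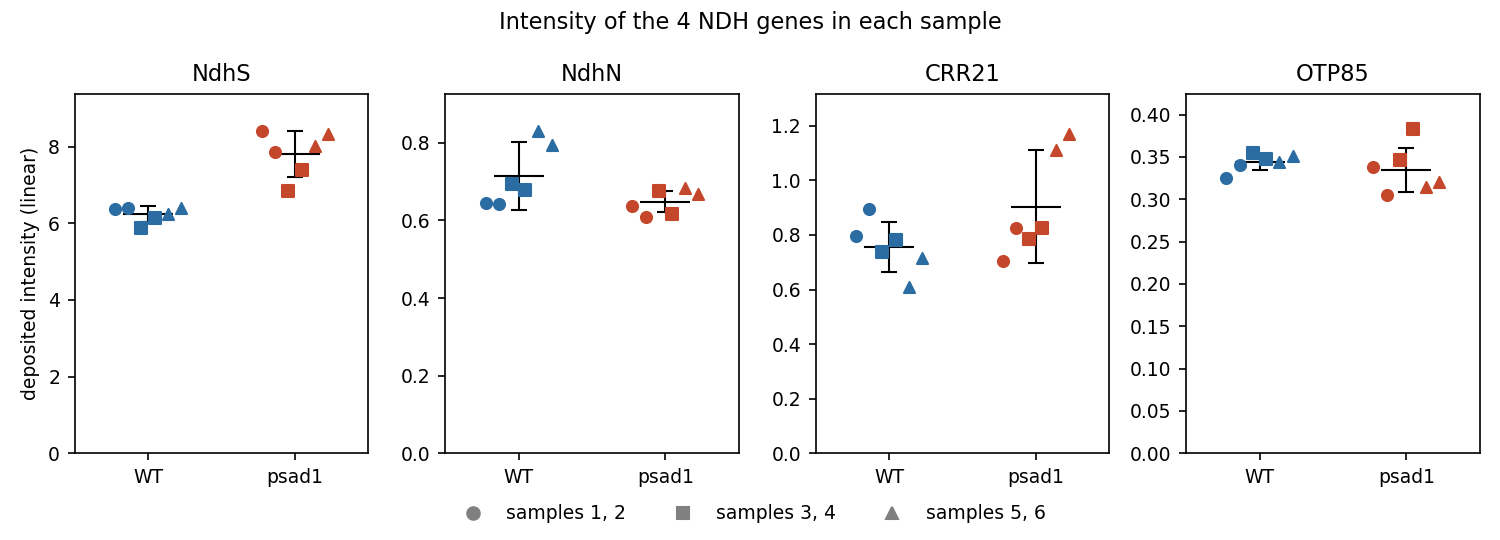
Deposited intensity (linear scale, from 0) of NdhS, NdhN, CRR21 and OTP85 in each of the 6 WT samples (blue) and 6 psad1 samples (red); the marker shape gives the set, and black lines are the mean and SD of 3 set averages. For NdhS all psad1 points, 6.83 to 8.41, lie above all WT points, 5.89 to 6.40, whereas the genotypes overlap for the other 3 genes.

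The NdhS difference varied little with the sets that entered it. Leaving out 1 set at a time gave log2 changes from 0.29 to 0.39, the highest without psad1 samples 3 and 4. Adjusted p-values on the remaining set averages were 0.185 to 0.409. Partners in a set differed by a median of 0.06 on the log2 scale for NdhS, against 0.08 for the median tested probe. The difference of NdhS between genotypes was thus wider than the spread of its set averages within WT, which spanned 0.09, and within psad1, which spanned 0.20. Among 640 tested probes with 1 gene it was the 43rd largest log2 change upward, and 91.8% of all tested probes had a lower log2 change.

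NdhN, a subunit of the stromal part of the complex known as subcomplex A, did not share the higher level of NdhS. Its intensity in WT samples 1 to 6 was 0.645, 0.643, 0.695, 0.679, 0.832 and 0.793. In psad1 samples 1 to 6 it was 0.637, 0.608, 0.676, 0.617, 0.685 and 0.667. The genotypes overlapped, and the highest values of all were those of WT samples 5 and 6. WT averaged 0.715 ± 0.0874 (SD, n = 3) and psad1 0.648 ± 0.0267. The log2 change of −0.13 (SE 0.12) missed the threshold on set averages (limma adjusted p = 0.598) and on 12 samples (0.218). The 95% interval of the fold, 0.762 to 1.09, leaves room for a decrease or a small increase. Without WT samples 5 and 6 the log2 change was −0.04.

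The 2 subunit genes were also set against each other within samples. The log2 ratio of NdhS to NdhN averaged 3.13 ± 0.176 (SD, n = 3) for WT and 3.59 ± 0.123 for psad1. This ratio was 0.46 higher in psad1 on the log2 scale, with p = 0.1 in an exact two-sided permutation test of the set averages, the smallest possible, and 0.2 after adjustment over the 2 such ratios examined. The ratio was taken before the position correction described below, after which the log2 change was 0.33 for NdhS and −0.04 for NdhN. The size of each ratio itself depends on the probes and says nothing of the relative abundance of the transcripts.

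CRR21, a PPR protein needed for editing of ndhD at a particular site, varied most between samples. Its intensity in WT samples 1 to 6 was 0.796, 0.895, 0.739, 0.780, 0.611 and 0.714. In psad1 samples 1 to 6 it was 0.703, 0.825, 0.786, 0.827, 1.11 and 1.17. Psad1 samples 5 and 6 stood above all others, and the other psad1 samples lay within the range of WT. WT averaged 0.756 ± 0.0916 (SD, n = 3) and psad1 0.904 ± 0.206. The log2 change of 0.24 (SE 0.16) missed the threshold both on set averages (limma adjusted p = 0.496) and on 12 samples (0.184). Without psad1 samples 5 and 6 the log2 change was 0.06, and without WT samples 5 and 6 it was 0.15. Its set averages spanned 0.35 on the log2 scale in WT and 0.58 in psad1, against 0.23 and 0.29 for the median tested probe.

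OTP85, a PPR protein needed for editing of ndhD at another site, had nearly the same level in both genotypes. In WT samples 1 to 6 its intensity was 0.325, 0.341, 0.354, 0.347, 0.343 and 0.351. In psad1 samples 1 to 6 it was 0.338, 0.306, 0.346, 0.382, 0.314 and 0.320. Psad1 samples held both the lowest value, in sample 2, and the highest, in sample 4. WT averaged 0.344 ± 0.00961 (SD, n = 3) and psad1 0.334 ± 0.0260. The log2 change of −0.04 (SE 0.10) did not pass on set averages (limma adjusted p = 0.867) or on 12 samples (0.666), and the 95% interval of the fold was 0.828 to 1.14. This probe was the dimmest of the 4, between 1.73 and 2.32 times the intensity floor of its sample, and no sample was at the floor. NdhS was between 32.0 and 51.8 times its floor, and NdhN and CRR21 at least 3.45 and 3.82 times.

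Both editing factors were compared in the same way as the subunits. For CRR21 over OTP85 the log2 ratio averaged 1.13 ± 0.209 (SD, n = 3) for WT and 1.41 ± 0.378 for psad1. The difference was 0.29, with p = 0.4 in the exact two-sided permutation test (0.4 after adjustment over the 2 ratios). This ratio too was taken before the position correction. After it the log2 change was 0.04 for CRR21 and 0.07 for OTP85, so CRR21 no longer rose more than OTP85. The 4 genes did not vary together: over the 12 samples r between pairs of members ran from −0.474 (NdhS with NdhN) to 0.546 (NdhS with CRR21). After subtraction of genotype means r ran from −0.506 (NdhS with OTP85) to 0.303 (NdhS with CRR21). The 12 points of each r share sets, and the values are given as a description. They carry no correction for the shifts with probe number described below, so they do not separate the genes' own variation from such shifts.

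**Figure D2:**
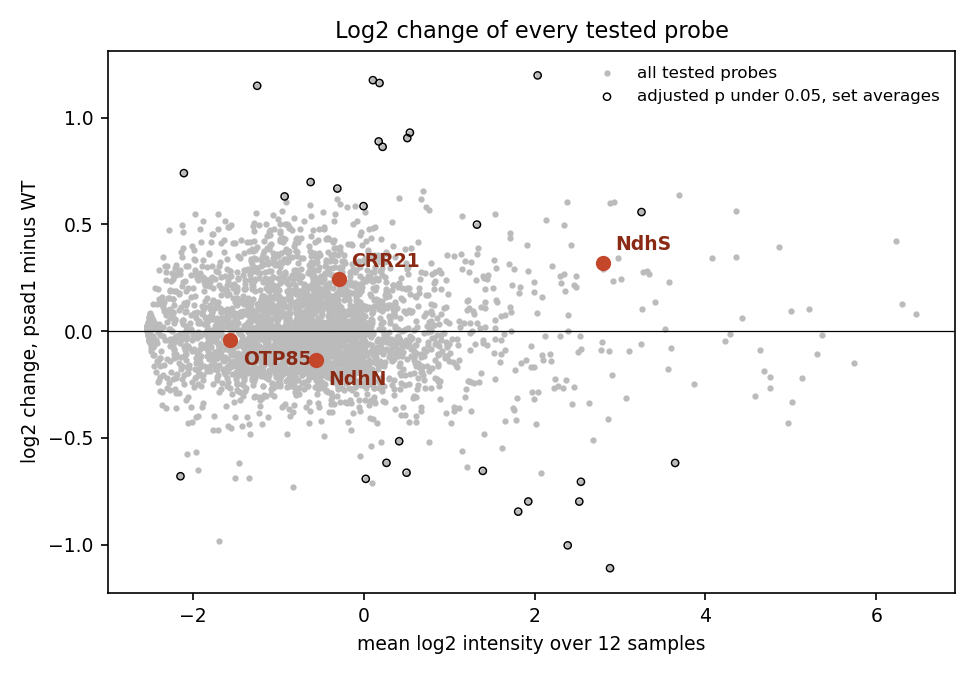
Log2 change (psad1 minus WT, set averages) of each of 3202 tested probes against its mean log2 intensity over 12 samples; grey points are all tested probes, open circles the 28 that passed an adjusted p of 0.05, and red points the 4 NDH genes. NdhS lies near the upper edge of the probes of its brightness without an open circle, and NdhN, CRR21 and OTP85 lie inside the grey cloud.

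The median log2 change was 0.10 over the 4 genes and −0.02 over all tested probes, whose 5th and 95th percentiles were −0.29 and 0.38. All 4 genes thus lay within the range that holds most probes. The log2 change was above 0 for 2 of the 4 (NdhS and CRR21) and for 46.7% of all tested probes. That of OTP85 was within its SE of 0 and turned positive after the position correction described next.

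Intensities on this array also moved with the probe number, which was assumed to follow the layout. For each gene the sample's deviation was set beside the running median of deviations over 25 neighbouring probe numbers. At NdhS this running median lay between −0.10 and 0.05 in single samples. It differed by −0.01 on the log2 scale between genotypes, and 12 of the 24 nearest tested probes had a log2 change above 0. Single neighbours ranged from −0.34 to 0.74, which a median does not show. Of those 24 neighbours, 1 had a log2 change as large as that of NdhS. After subtraction of the running median the log2 change of NdhS was 0.33 (SE 0.08), with a limma adjusted p of 0.0856 on set averages and 0.00111 on 12 samples, where 1.75% and 13.7% of tested probes passed.

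At CRR21 the neighbourhood moved with the gene. The neighbours' running median was 0.43 above their mean in psad1 samples 5 and 6 and −0.30 in WT samples 5 and 6, where CRR21 itself deviated by 0.48 and −0.31. Among the 24 nearest probes, 23 had a log2 change above 0, with a median of 0.23, and 10 had one at least as large as that of CRR21. After subtraction the log2 change of CRR21 was 0.04 (SE 0.07, limma adjusted p = 0.868 on set averages). The running median also differed between genotypes by −0.10 at NdhN and −0.12 at OTP85, where the genes themselves changed by −0.13 and −0.04. Of the 24 nearest probes, 7 at NdhN and 3 at OTP85 had a log2 change above 0, and the median was −0.13 at NdhN and −0.12 at OTP85. After subtraction NdhN was at −0.04 (SE 0.07) and OTP85 at 0.07 (SE 0.06), and neither passed (limma adjusted p = 0.873 and 0.624 on set averages). The subtraction also removes any genotype difference that neighbouring genes share, and what lies behind the neighbourhood shifts was not tested.

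**Figure D3:**
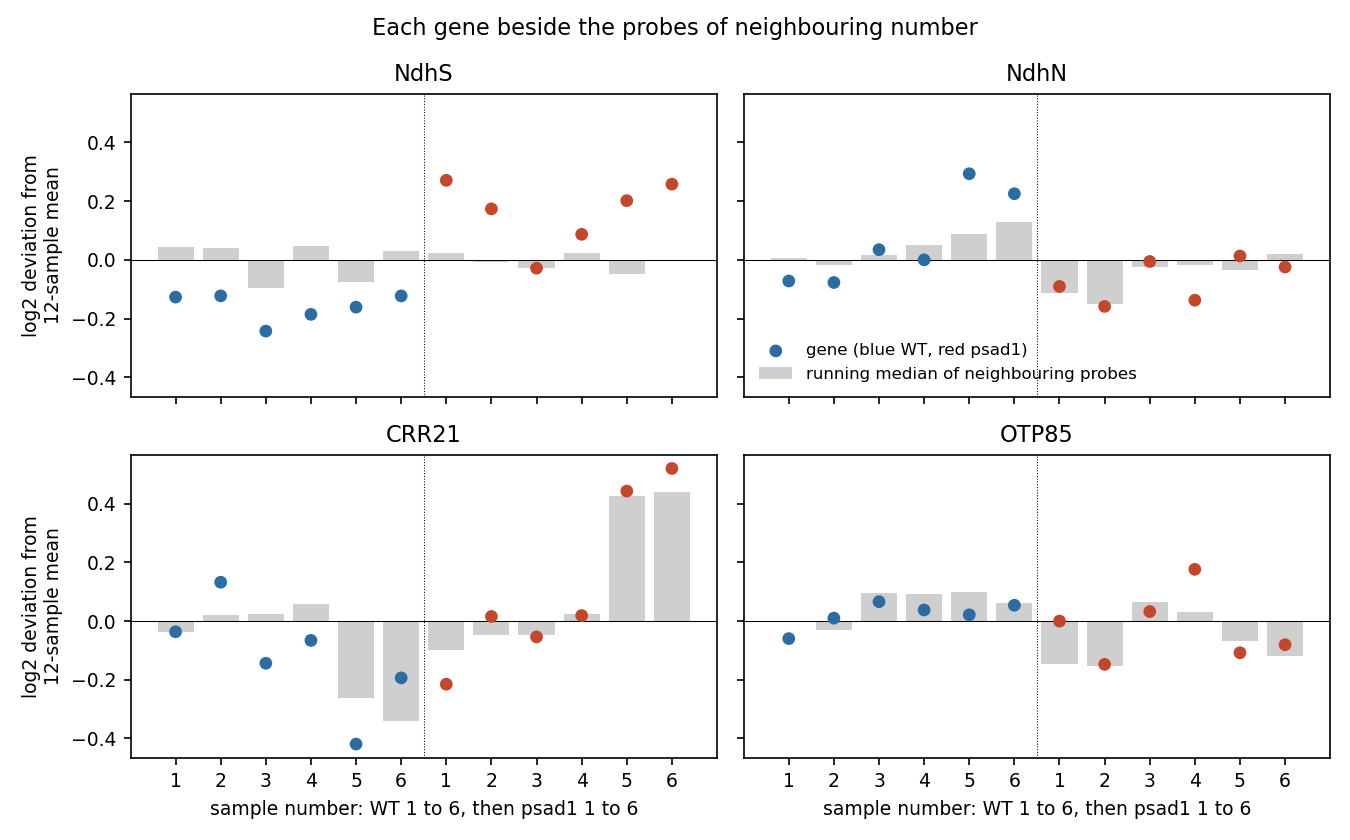
Log2 deviation of each gene from its mean over 12 samples (points, blue WT and red psad1) beside the running median of the deviations of 25 neighbouring probe numbers (grey bars), for samples 1 to 6 of each genotype. At NdhS the bars lie between −0.10 and 0.05. At CRR21 they follow the gene, with set averages of 0.43 in psad1 samples 5 and 6 and −0.30 in WT samples 5 and 6.

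**Figure D4:**
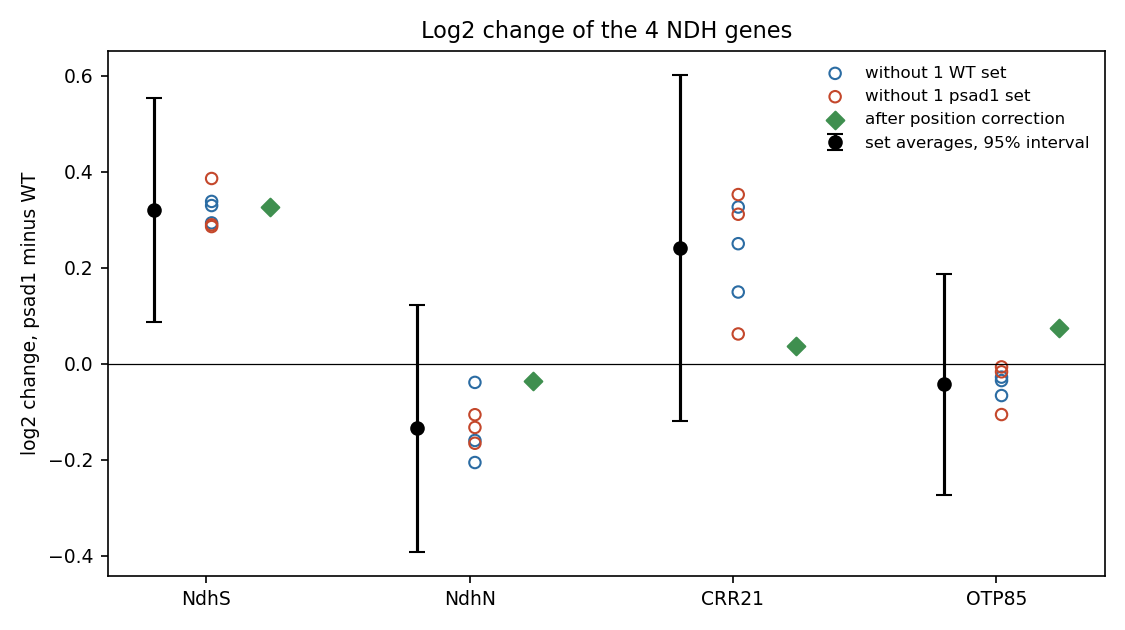
Log2 change (psad1 minus WT) of the 4 NDH genes: black points with 95% intervals are from 3 set averages per genotype, open circles leave out 1 WT set (blue) or 1 psad1 set (red), and green diamonds follow the position correction. NdhS stays between 0.29 and 0.39 on leaving out a set and at 0.33 after correction, whereas CRR21 moves between 0.06 and 0.35 and to 0.04, and the corrected value of OTP85 changes sign.

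Few other genes of the pathway could be traced to a probe of their own. Of 16 further NDH subunits, 14 were matched to the gene table and 0 had a single-gene probe. The same held for 4 genes of the PGR5 route, the other path of cyclic electron flow (3 matched), and for 7 of ferredoxin and its reductases (5 matched). Of 10 NDH assembly and photosystem I linker factors, 1 was measured, and so was 1 of 22 further factors of plastid RNA editing and processing, where another 3 genes (OTP80, OTP86 and LPA66) stood only on probes with several genes. Of 17 photosystem I and antenna genes PSAN alone was measured. None of these 3 measured genes passed on set averages or on 12 samples. Genes without a probe of their own count as not identified here, not as absent from the array. None of 10 markers of root, seed or pollen (8 matched) had a single-gene probe, so the composition of the tissue was not checked.

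CRR41, a chloroplast stromal factor for the assembly of subcomplex A, to which NdhN belongs, measured 0.579 to 0.754 in WT and 0.513 to 0.710 in psad1. The ranges overlapped. WT averaged 0.681 ± 0.0730 (SD, n = 3) and psad1 0.609 ± 0.0733, for a log2 change of −0.16 (SE 0.13, limma adjusted p = 0.569 on set averages and 0.212 on 12 samples). After the position correction it was −0.06. OTP70, a PPR protein of chloroplast transcript splicing, measured 1.05 to 1.33 in WT and 1.12 to 1.57 in psad1, again with overlap. Its log2 change was 0.19 (SE 0.13, adjusted p = 0.503 and 0.155), and 0.13 after the correction.

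PSAN, a photosystem I subunit on the lumen side, was measured by the probe 8 numbers from that of NdhS. It stood at 4.54 to 4.80 in WT and at 4.35 to 6.80 in psad1, where sample 2 lay below all WT samples, with a log2 change of 0.27 (SE 0.11, limma adjusted p = 0.294 on set averages and 0.0641 on 12 samples). After the position correction it was 0.31 (adjusted p = 0.126 on set averages). Over the 12 samples its log2 intensity correlated with that of NdhS with r = 0.731, and with r = 0.445 after subtraction of genotype means.

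The genes whose pattern over the 12 samples was most like each member were ranked by Pearson's r of log2 intensity among 639 other single-gene probes. These r values are descriptions over samples that share sets. NdhS was closest to AT4G20760 (r = 0.888), to AT4G32060 (r = 0.888), the gene of MICU, a regulator of calcium uptake by mitochondria, and to XERICO (r = 0.884), a RING-type zinc finger gene of abscisic acid responses. All 3 had higher values in psad1, with log2 changes of 0.47, 0.50 and 0.34. On set averages AT4G32060 passed (limma adjusted p = 0.0479), while AT4G20760 and XERICO did not (0.0793 and 0.179). All 3 passed on 12 samples (limma adjusted p = 0.000915, 3.53e-05 and 0.00219), where 15.8% of all tested probes did. Because NdhS separated the genotypes, choosing genes by their r with it favours genes higher in psad1. Their changes are thus no separate evidence about NdhS. After subtraction of genotype means the 3 values of r were 0.442, 0.148 and 0.376, so that their likeness to NdhS lay mostly in the difference between genotypes. After the position correction they were 0.865, 0.866 and 0.878.

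For the other members the likeness to their closest genes remained after subtraction of genotype means. CRR21 was closest to AT3G54210 (r = 0.961), which encodes a plastid ribosomal protein, AT5G06930 (r = 0.954) and AT1G77730 (r = 0.948). Their r after subtraction of genotype means was 0.950 to 0.954, and after the position correction 0.470 to 0.626. NdhN was closest to AT3G56010 (r = 0.931), to LrgB (r = 0.889), also known as PLGG1, the plastid transporter of glycolate and glycerate, and to AT5G40050 (r = 0.886). Their r was 0.842 to 0.916 after subtraction of genotype means, and 0.797, 0.582 and 0.540 after the position correction. OTP85 was closest to AT3G02450 (r = 0.867), AT3G03590 (r = 0.818) and AT1G21730 (r = 0.811). For these r was 0.800 to 0.871 after subtraction of genotype means, and 0.281, 0.213 and 0.031 after the position correction. None of these 9 genes passed on set averages or on 12 samples.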

How the data were processed

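The authors' deposited values are array intensities on a linear scale, a table of 3439 probes by 12 samples, 6 per genotype by the labels. Neither labels nor table name a scanner, a background correction or a scaling. Column means lay between 1.05 and 1.07, so the table was used as deposited. Genes were named from the platform's annotation through the RefSeq gene table (690 of 692 single-gene probes matched). No source names the build of the array, and coordinates and sequences were not used here.

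Intensities below the 5th percentile of each sample's positive values were raised to that floor before taking log2. Probes that never exceeded their floor (237) were left out. Log2 values, averaged within sets of 2 samples, were compared by limma (version 3.58.1, R 4.3.3; lmFit and eBayes, two-sided, Benjamini-Hochberg over 3202 probes, threshold 0.05). The fit was tested on simulated data. The main fit assumed no pairing by replicate number. Deviations of same-numbered WT and psad1 samples nevertheless correlated between 0.00805 and 0.483, and 4 of 6 exceeded 0.1. Fits with the sample or set number as a block are therefore among the alternatives. Figures used matplotlib 3.10.9. The members, the lists, the sets and the tests were chosen with earlier results of these data known. Named genes are the 4 members, every measured list gene and, for each member, the 3 single-gene probes of highest Pearson's r. The number of samples limits the precision. Alternatives are given in the closing section.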

Additional observations from a re-analysis of the deposited data

Results flagged for a closer look

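Dixon's criterion was applied to 14 groups of 6 samples (4 members and 3 further pathway genes in each genotype). In 0 of them was a sample far from the others. Chance alone marks about 1 in 20 where values are independent. The samples here resembled each other in sets of 2, so that rate need not hold. This criterion does not mark partners that lie apart together, such as psad1 samples 5 and 6 for CRR21.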

How the results depend on the processing

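On set averages 28 of 3202 tested probes (0.874%) and 0 of the 4 NDH genes passed. The count of probes was 505 on 12 samples, 84 with sets as a random block, 761 on 12 samples with the sample number as a replicate block, 46 with the floor at the 10th percentile, 59 with an offset instead of a floor, 51 with no filter on dim probes, 56 after position correction and 440 after position correction on 12 samples, the last chosen after the data were seen. It was 27 for set averages paired by set number (a replicate block), and 9 to 53 with a sample or set left out (11, 14 and 17 without WT sets 1 to 3, and 14, 9 and 53 without psad1 sets 1 to 3). Median centring left 28, of which 11 were higher in psad1, against 15 of 28. Quantile normalization gave 39 probes, with a limma adjusted p of 0.109 for NdhS. Keeping only probes above the floor in at least 6 samples gave 28 of 3143. Of the NDH genes 1 passed, NdhS, on 12 samples, with the sample number as a replicate block (adjusted p 0.00289) and after position correction on 12 samples. In these fits 15.8% of tested probes, 761 of 3202 and 13.7% passed, so many other probes passed with it. In every other alternative 0 of the NDH genes passed. Of 30 alternatives, 7 leave these log2 changes as they are and bear on the test alone. In the other 23, NdhS, CRR21 and NdhN kept their direction, and OTP85 did in 21, turning to 0.074 after position correction on set averages and on 12 samples. Over the 18 fits with a sample or set left out, log2 changes ran from 0.29 to 0.39 for NdhS, 0.06 to 0.35 for CRR21, −0.21 to −0.04 for NdhN and −0.11 to −0.01 for OTP85. The cause of these changes was not tested. OTP85 was the dimmest of the 4, at 1.73 to 2.32 times the floor, and kept its value with the floor at the 10th percentile.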
